A study of Homo sapiens with 16 samples.

Results

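The genes described here are 10 genes of the Notch pathway. They are the ligands DLL1, DLL3 and JAG1, the receptors NOTCH1, NOTCH2 and NOTCH3, the coactivator MAML2, and the target genes HES1, HES5 and HEY1. They were chosen by name and pathway role, with earlier results of these data known. All 10 are among the 23284 genes of the authors' deposited table. The table comes from a study of FOXB1, a forkhead transcription factor, during the formation of human neural crest, in which poly-adenylated RNA of 16 samples was sequenced. WA01 human embryonic stem cells were seeded on Matrigel at 20000 cells per cm2 in a medium with B27 and 3 µM CHIR99021, an inhibitor of GSK3 that turns on Wnt signalling. The ROCK inhibitor Y-27632 was present at 10 µM for the first 2 days.

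The labels give 4 genotypes. The isogenic wild-type lines isoWT1 and isoWT2 carry no named edit, and the lines sgRNA-Het and sgRNA-KO, called Het and KO below, were cut by Cas9 with 1 guide at the translational start of FOXB1. Each genotype was taken at day 3, labelled pre-neural crest cells, and at day 5, labelled neural crest cells, with 2 replicates each. Nothing in the labels says whether replicates were separate cultures or whether an edited line is a clone. Each edited genotype is 1 line, so genotype and line cannot be told apart. The table holds 1 level per gene for each of 6 groups, the 3 genotypes at both days, in FPKM (fragments per kilobase of transcript, scaled to the number of mapped fragments). Wild type appears in it as 1 group for each day, although the labels list 4 such libraries at each, and which of them entered is not stated. The group that the table names HOMO was read as KO. No level per library is in it, so the spread between replicates is seen only through the standard error (SE) that the authors' test score implies.

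Notch signalling passes between touching cells. A ligand of the Delta or Jagged family on one cell binds a Notch receptor on its neighbour, the receptor is cut, and its intracellular part enters the nucleus, where it joins the DNA-binding protein RBPJ and a Mastermind coactivator. Its best known targets are repressors of the HES and HEY families, which hold back proneural genes. In the developing nervous system DLL1 and DLL3 are typical of cells entering neurogenesis and HES5 of neural progenitors, and Notch signalling is also known to act at the neural plate border and in the choice between neurons and glia in the neural crest.

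RBPJ binds DNA at a core of 7 bases, GTGGGAA on one strand and TTCCCAC on the other. The bases before the start of the targets HES1 and HES5 are printed because their RNA took different courses in these cells. In the RefSeq promoter table (GRCh38.p14), 7 of the 10 genes had an entry, and DLL1, DLL3 and HEY1 did not. The core was found on either strand in the 250 bases before the start of 2 of those 7 genes, HES1 and HES5, and not in those of JAG1, NOTCH1, NOTCH2, NOTCH3 or MAML2. Among all 35116 windows of that length in the table, 5.43% hold it. Capitals mark the core, and the last base printed is the base before the transcription start.
HES1, chr3:194135898-194136147, plus strand: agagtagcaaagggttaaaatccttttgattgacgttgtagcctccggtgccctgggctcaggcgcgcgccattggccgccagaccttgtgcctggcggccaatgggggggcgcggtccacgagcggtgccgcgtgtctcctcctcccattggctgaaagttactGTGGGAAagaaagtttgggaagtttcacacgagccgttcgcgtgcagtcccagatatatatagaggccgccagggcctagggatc
HES5, chr1:2530264-2530513, minus strand: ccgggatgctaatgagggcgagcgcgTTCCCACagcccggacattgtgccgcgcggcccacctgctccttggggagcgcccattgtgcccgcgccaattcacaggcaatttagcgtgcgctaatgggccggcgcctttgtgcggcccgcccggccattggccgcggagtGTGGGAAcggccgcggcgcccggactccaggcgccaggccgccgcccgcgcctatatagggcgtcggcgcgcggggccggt
The HES1 window holds 1 core, whose first base lies at -85 from the start. The HES5 window holds 2, at -224 on the opposite strand and at -81 on the strand of the gene. The N box CACNAG, a site that HES repressors can bind, was also searched on both strands. It occurs 3 times in the HES1 window and 0 times in that of HES5, with 0 overlaps with a core, and in 32.0% of all windows. These are matches of letters, and binding was not measured here.

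Below, a log2 change is the log2 ratio of the group levels without a pseudocount, followed by its SE. A gene is said to have risen or fallen only where the authors' deposited table gives it a q-value below 0.05. Of the 10 genes, 5 were at 1 FPKM or more in all 6 groups, namely JAG1, NOTCH1, NOTCH2, NOTCH3 and HES1, so a minimum level would have removed the others from part of the comparisons. The SE of a group's level ranged from 0.26 to 1.11 on the log2 scale over the 10 genes and 6 groups, and was largest for HES5 in Het at day 3. The KO line kept FOXB1 RNA at 15.5 FPKM at day 3 (wild type 18.3) and 1.86 FPKM at day 5 (wild type 5.51), and Het had 7.73 and 4.47 FPKM. A guide at the start codon can stop the protein while leaving the transcript, so these levels do not check the labels. In these bulk samples fewer cells that carry a transcript and less of it per cell cannot be told apart.

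**Figure D1:**
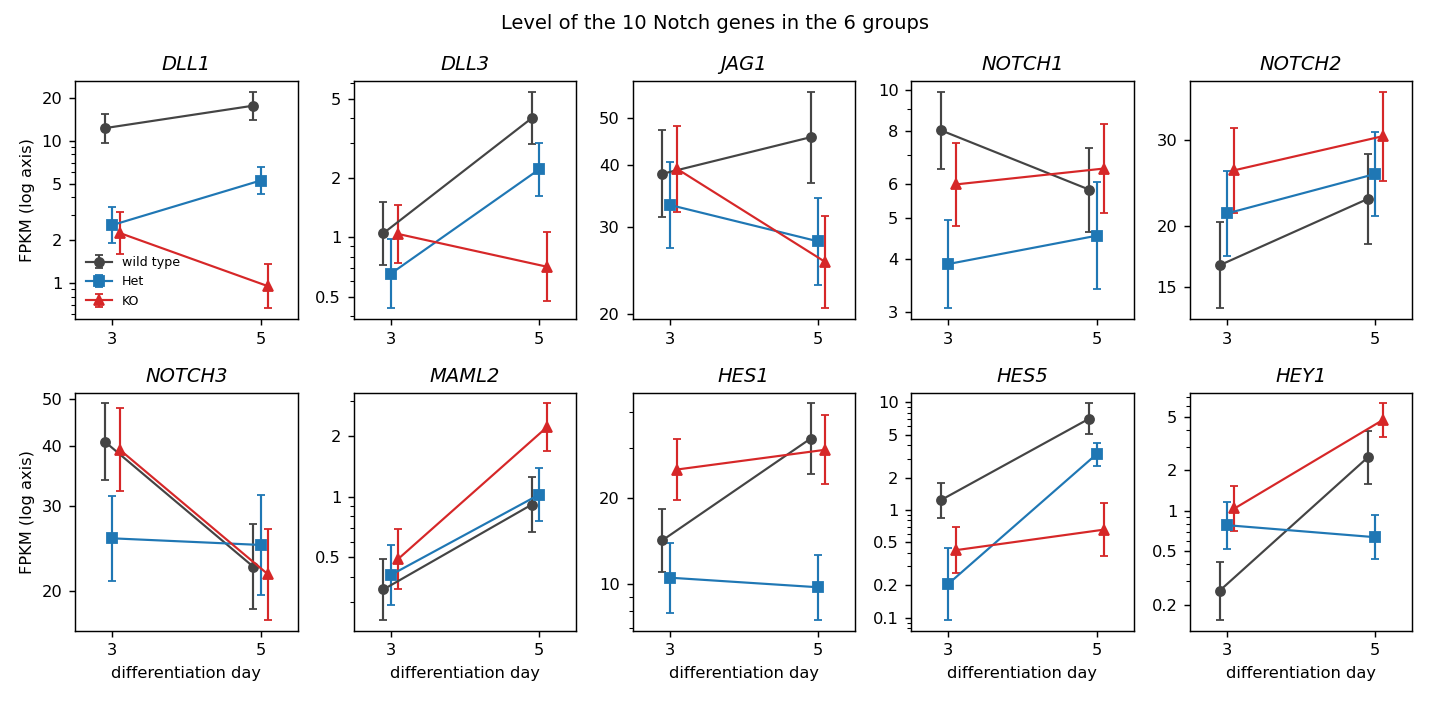
FPKM (log axis, with its own scale for each gene) of the 10 Notch genes at day 3 and day 5 in wild type, Het and KO. Points are the deposited group levels and bars are 1 implied SE either side. DLL1 was highest in wild type at both days, and HES5 and DLL3 stayed low in KO at day 5 while they were higher in wild type and Het.

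The Delta ligand DLL1 was the member whose level differed most often between groups, with 10 of the 15 pairs of groups called in the authors' deposited table. The gene lies on chromosome 6 at 170591294 to 170599697 (hg19). Its level in wild type was 12.3 FPKM at day 3 and 17.6 FPKM at day 5. In Het it was 2.55 and 5.25 FPKM, and in KO it was 2.24 and 0.948 FPKM. Both wild-type levels thus stood above all 4 levels of the edited lines. DLL1 fell in KO at day 3 by a log2 change of -2.45 (SE 0.59, q = 0.00126 in the authors' deposited table), which is 5.46-fold lower. At day 5 its change in KO against wild type was -4.22 (SE 0.61), or 18.6-fold lower. In Het it fell 4.81-fold at day 3 (-2.27, SE 0.54) and 3.36-fold at day 5 (-1.75, SE 0.46). All these comparisons use the same wild-type group of their day. KO and Het did not differ past the threshold at day 3 (-0.18, SE 0.65, q = 0.903 in the authors' deposited table), and at day 5 KO was 5.54-fold below Het (-2.47, SE 0.61). Within KO the change from day 3 to day 5 was -1.24 (SE 0.71, q = 0.0815 in the authors' deposited table) and did not pass. In the order of the 6 levels, the only neighbours that differed past the threshold were wild type at day 3 and Het at day 5 (q = 0.00749 in the authors' deposited table).

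DLL3, a Delta family protein that acts mainly inside the cell and can block Notch in the cell that makes it, was at low levels. It lies on chromosome 19 at 39989557 to 39999121. Its level in wild type went from 1.05 FPKM at day 3 to 4.001 FPKM at day 5. In Het it went from 0.656 to 2.21 FPKM, and in KO from 1.04 to 0.711 FPKM. DLL3 rose with time in wild type (1.93, SE 0.69, q = 0.00476 in the authors' deposited table) and in Het (1.75, SE 0.73, q = 0.0324), whereas its change in KO was -0.55 (SE 0.76) and did not pass. At day 3 the KO and wild-type levels were nearly the same (-0.01, SE 0.72), and at day 5 DLL3 was 5.63-fold lower in KO (-2.49, SE 0.73).

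JAG1, a Jagged ligand, had the highest level of the ligands in every group. It lies on chromosome 20 at 10618332 to 10654694. In wild type it was at 38.5 FPKM at day 3 and 45.6 FPKM at day 5, in Het at 33.3 and 28.1 FPKM, and in KO at 39.4 and 25.5 FPKM. Of its 15 pairs of groups, 1 passed the threshold in the authors' deposited table: at day 5 JAG1 fell 1.79-fold in KO (-0.84, SE 0.44, q = 0.032). The Het change at day 5 was -0.70 (SE 0.42) with q = 0.0784 in the authors' deposited table.

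Summed over the 3 ligands, the level was 51.8 FPKM in wild type at day 3 and 67.3 FPKM at day 5. The sum was 36.5 and 35.5 FPKM in Het and 42.7 and 27.1 FPKM in KO. DLL1 made up 23.7% of the sum in wild type at day 3 and 26.2% at day 5. Its part was 6.99% and 14.8% in Het and 5.26% and 3.49% in KO. Other ligand genes, such as JAG2, DLK1 and DNER (0.729, 7.53 and 6.37 FPKM in KO at day 5), are outside this sum. DLK1 alone was at 151 FPKM in wild type and 54.4 FPKM in Het at day 3, above the sum of the 3 ligands in those groups. In the other groups it was below that sum. JAG1 stood at 2.59 times DLL1 in wild type at day 5 and at 26.9 times DLL1 in KO at day 5. It made up 93.9% of the sum of the 3 ligands in KO at day 5 and 92.3% in KO at day 3. Its part was 91.2% and 79.0% in Het and 74.3% and 67.8% in wild type at days 3 and 5. No test was made of these ratios, whose parts share their libraries.

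**Figure D2:**
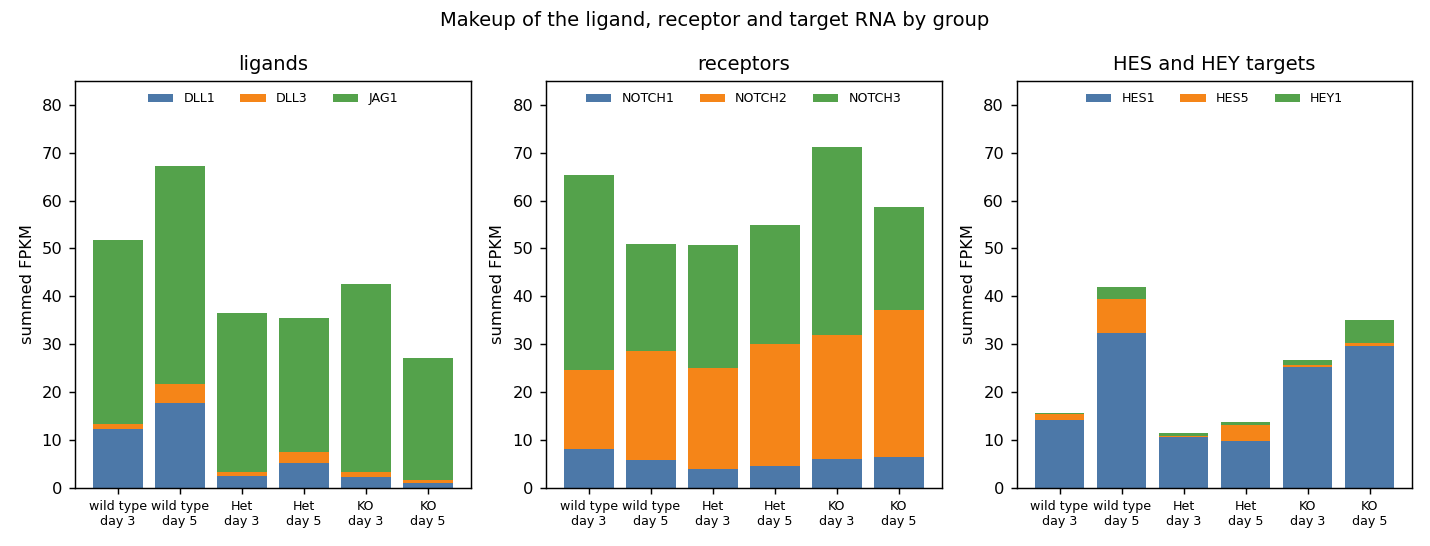
Summed FPKM of the 3 ligands, the 3 receptors and the 3 target genes in each of the 6 groups, with bars divided by gene. The ligand bar of KO at day 5 (27.1 FPKM) is almost wholly JAG1, the receptor bars lie between 50.8 and 71.2 FPKM, and the target bars range from 11.5 FPKM in Het at day 3 to 41.9 FPKM in wild type at day 5.

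The receptors spanned less between groups than DLL1 and DLL3, with the highest level 1.83 to 2.06 times the lowest, as against 1.79 times for JAG1. NOTCH3 (chromosome 19, 15270444 to 15311792) was at 40.8 FPKM in wild type at day 3 and 22.4 FPKM at day 5. Its levels were 25.7 and 24.9 FPKM in Het and 39.2 and 21.6 FPKM in KO. The highest values were thus those of wild type and KO at day 3, and the 3 groups at day 5 lay close together. NOTCH3 fell with time 1.82-fold in wild type (-0.86, SE 0.40, q = 0.00227 in the authors' deposited table) and 1.82-fold in KO (-0.86, SE 0.43, q = 0.0492), and its change in Het was -0.05 (SE 0.45). Transcripts rich in G and C were lower at day 5 of wild type as a class (median -0.53 in the fifth with the most), and NOTCH3 has 63.1% GC. Centred on genes of like GC content, the wild-type change was -0.28 and no longer passed, while the KO change was -0.92 and passed.

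NOTCH2 (chromosome 1, 120454176 to 120612317) was at 16.6 and 22.8 FPKM in wild type at days 3 and 5. It was at 21.2 and 25.6 FPKM in Het and at 26.0 and 30.5 FPKM in KO. The KO level was the highest and the wild-type level the lowest at each day, but the changes in KO were 0.64 (SE 0.41, q = 0.0766 in the authors' deposited table) and 0.42 (SE 0.43, q = 0.389) and did not pass. The one pair of groups that passed differed in both line and day, wild type at day 3 and KO at day 5. The partial copy NOTCH2NL shares nearly identical sequence with NOTCH2 and can take part of its reads. NOTCH2NL was at 3.52 to 10.3 FPKM, lowest in wild type at day 3 and highest in KO at day 5. Unlike NOTCH2, it lies in the distal part of chromosome 1. Against wild type, expressed genes of that region had a median log2 change of 0.60 in KO at day 3 and 0.37 at day 5. The part of that shift in the levels of NOTCH2NL was not tested. NOTCH1 (chromosome 9, 139388896 to 139440238, with the microRNA gene MIR4673 inside it) was the lowest of the receptors. Its levels in wild type were 8.02 and 5.82 FPKM, in Het 3.89 and 4.53 FPKM, and in KO 5.98 and 6.52 FPKM. NOTCH1 fell in Het at day 3 2.06-fold (-1.05, SE 0.46, q = 0.00399 in the authors' deposited table), the only one of its 15 pairs that passed. The fifth of transcripts with the most GC had a median of -0.48 in that comparison, NOTCH1 has 62.9% GC, and centred on genes of like GC its change was -0.53 and did not pass. Summed over the 3 receptors the level was 65.4 and 51.0 FPKM in wild type, 50.8 and 55.0 FPKM in Het, and 71.2 and 58.7 FPKM in KO.

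MAML2 (chromosome 11, 95711440 to 96076344, with MIR1260B inside it), a Mastermind coactivator of the Notch complex, was low in all groups and rose with time in each line. Its level went from 0.347 to 0.915 FPKM in wild type, from 0.410 to 1.03 FPKM in Het and from 0.492 to 2.21 FPKM in KO. The log2 changes were 1.40 (SE 0.68), 1.32 (SE 0.66) and 2.17 (SE 0.64), with q = 0.00615, 0.045 and 0.00126 in the authors' deposited table. At day 5 MAML2 was 2.42-fold higher in KO than in wild type (1.27, SE 0.60, q = 0.0214 in the authors' deposited table). The lines were not tested against each other at day 3, where the table gives no test for this gene.

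HES1 (chromosome 3, 193853931 to 193856401), the HES repressor with the broadest expression, was the most abundant target in every group. It was at 14.2 FPKM in wild type at day 3 and 32.4 FPKM at day 5. In Het it was at 10.5 and 9.73 FPKM, and in KO at 25.2 and 29.6 FPKM. Both Het levels were thus below all levels of the other lines. HES1 rose 2.28-fold with time in wild type (1.19, SE 0.55, q = 0.00316 in the authors' deposited table). Its change was -0.11 (SE 0.56) in Het and 0.23 (SE 0.53) in KO, both short of the threshold. At day 5 HES1 was 3.33-fold lower in Het than in wild type (-1.73, SE 0.56) and 3.04-fold higher in KO than in Het (1.60, SE 0.55), while KO and wild type differed by -0.13 (SE 0.57). At day 3 it was 2.40-fold higher in KO than in Het (1.26, SE 0.54, q = 0.0172 in the authors' deposited table), and the KO change against wild type of 0.83 (SE 0.51) had q = 0.0607. The day 3 difference between KO and Het was lost in 6 of the 7 alternatives, among them adjusting the q-values within that comparison alone.

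HES5 (chromosome 1, 2460184 to 2461684), a repressor that in the nervous system depends closely on Notch, took another course. It was at 1.24 FPKM in wild type at day 3 and 7.05 FPKM at day 5. In Het it went from 0.206 to 3.30 FPKM, and in KO from 0.424 to 0.658 FPKM. The KO level at day 5 was thus below that of wild type at either day. HES5 rose 5.70-fold in wild type (2.51, SE 0.71, q = 0.00126 in the authors' deposited table) and 16.0-fold in Het (4.001, SE 1.17, q = 0.0473), from a Het level close to 0. Its change in KO was 0.63 (SE 1.08) and did not pass. At day 5 HES5 was 10.7-fold lower in KO than in wild type (-3.42, SE 0.94, q = 0.00227 in the authors' deposited table) and 5.02-fold lower than in Het (-2.33, SE 0.89, q = 0.0285). The Het change at day 5 was -1.09 (SE 0.59, q = 0.191 in the authors' deposited table), and centred on genes of like GC content it was -1.37 and passed. At day 3 the changes were -1.54 (SE 0.90) in KO and -2.58 (SE 1.24) in Het, and neither passed, although the Het change (-2.55) did when centred on the median change of expressed genes. The level of HES1 was 4.59 times that of HES5 in wild type at day 5, 2.95 times in Het and 45.0 times in KO.

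HEY1 (chromosome 8, 80676245 to 80680098), a repressor best known as a Notch target in vessels and the heart, was at low levels and in a different order from HES5. It went from 0.255 to 2.51 FPKM in wild type, from 0.783 to 0.637 FPKM in Het and from 1.04 to 4.74 FPKM in KO. At day 3 both edited lines were above wild type, and at day 5 KO was the highest and Het the lowest. HEY1 rose with time 9.84-fold in wild type (3.30, SE 0.97) and 4.55-fold in KO (2.19, SE 0.68), both with q = 0.00126 in the authors' deposited table, and its change in Het was -0.30 (SE 0.79). Against wild type it rose 4.09-fold in KO at day 3 (2.03, SE 0.91, q = 0.021 in the authors' deposited table), from a wild-type level close to 0. It fell 3.93-fold in Het at day 5 (-1.98, SE 0.85, q = 0.0111), and KO stood 7.44-fold above Het (2.90, SE 0.68). The KO change at day 5 was 0.92 (SE 0.77, q = 0.283 in the authors' deposited table). Endothelium, where HEY1 is high, was checked by 5 markers: PECAM1, CDH5 and TIE1 were below 1 FPKM in all 6 groups, and TEK made up most of the summed level of 12.2 to 43.3 FPKM. The fifth marker, the VEGF receptor KDR, was at 0.971 and 0.404 FPKM in wild type, 3.45 and 1.63 FPKM in Het and 13.1 and 2.83 FPKM in KO. It rose against wild type in each edited line at both days. These include KO at day 3 (3.76, SE 0.53), where HEY1 rose, and Het at day 5, where HEY1 fell. With time in KO, KDR went down from 13.1 to 2.83 FPKM while HEY1 went up from 1.04 to 4.74 FPKM. TEK went the other way from KDR at day 5 and fell in KO against wild type. It was at 17.9 FPKM in wild type, 17.6 FPKM in Het and 8.66 FPKM in KO, and also fell in KO against Het. TEK was called in no other comparison between lines. The part of cells that express KDR or TEK in the change of HEY1 was not tested.

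**Figure D3:**
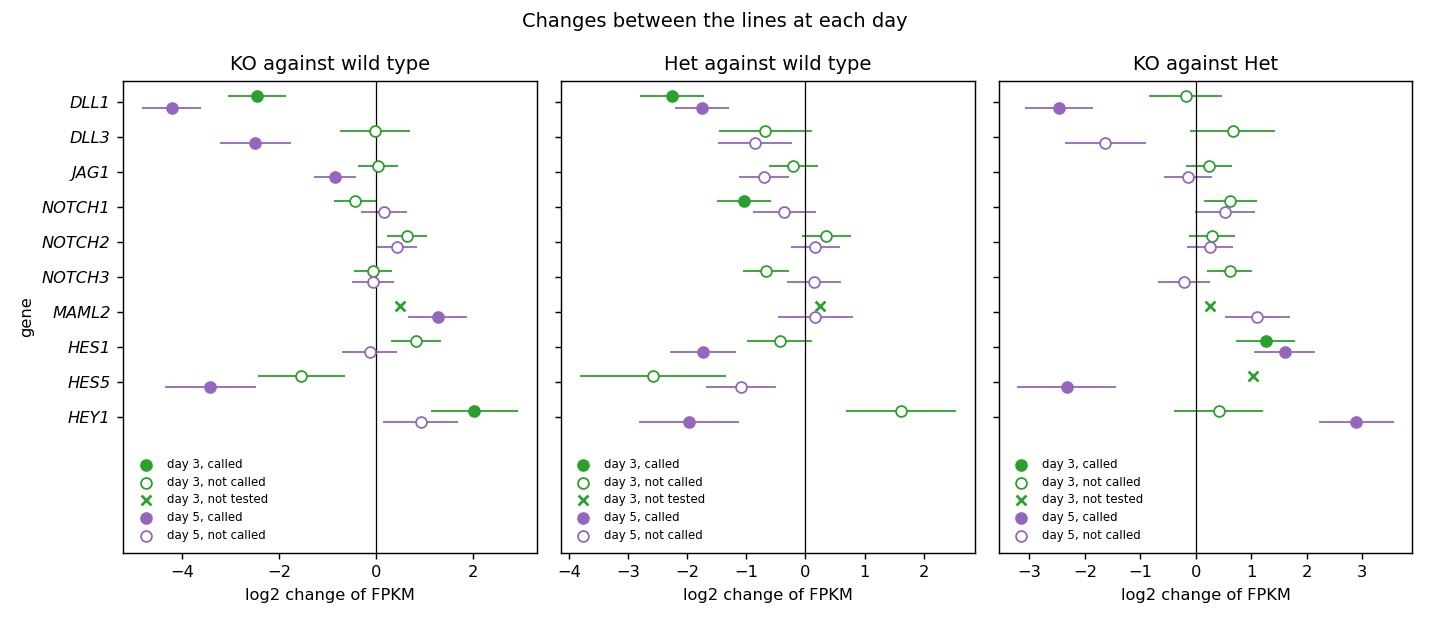
Log2 change of FPKM of the 10 genes in KO against wild type, Het against wild type and KO against Het. Green is day 3 and purple day 5, filled points passed the threshold, open points did not, crosses were not tested, and bars are 1 SE. DLL1 is left of 0 and filled in all 4 comparisons with wild type, HES1 and HEY1 at day 5 are left of 0 in Het and right of 0 in KO against Het, and HES5 at day 5 is left of 0 in KO against both.

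Counted over the members, KO against wild type at day 3 had 2 calls among 9 genes tested (HEY1 rose and DLL1 fell), beside 9.51% of all genes tested (4.34% up and 5.17% down) in the authors' deposited table. The median log2 change was -0.01 for the 9 members and -0.02 for all genes. At day 5, 5 of 10 were called (MAML2 rose; DLL1, DLL3, JAG1 and HES5 fell), beside 13.3% of all genes (7.58% rose and 5.68% fell). Those 4 that fell include all 3 ligands, and no receptor was called. Het against wild type had 2 of 9 at day 3 (DLL1 and NOTCH1 fell), beside 6.31% (1.68% rose and 4.63% fell), and 3 of 10 at day 5 (DLL1, HES1 and HEY1 fell), beside 2.16% (1.14% rose and 1.02% fell). KO against Het had 1 of 8 at day 3 (HES1), beside 2.84% (2.30% rose and 0.540% fell), and 4 of 10 at day 5 (HES1 and HEY1 rose; DLL1 and HES5 fell), beside 8.06% (5.55% rose and 2.51% fell). With a few genes each, these shares describe the 10 genes and are no test of them as a set.

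The wild-type time course was the comparison in which most members were called. There 6 of 10 were called between day 3 and day 5, beside 21.6% of all genes tested (11.2% up and 10.4% down) in the authors' deposited table: DLL3, MAML2, HES1, HES5 and HEY1 rose and NOTCH3 fell. All 3 targets were among them. The log2 change of DLL1 there was 0.53 (SE 0.47) and did not pass; centred on genes of like GC content its change was 0.93 and passed, while NOTCH3 no longer did. In Het 3 of 10 rose (DLL3, MAML2 and HES5), beside 7.57% of all genes (4.74% rose and 2.83% fell). In KO 3 of 10 were called (MAML2 and HEY1 rose and NOTCH3 fell), beside 11.8% (7.29% rose and 4.53% fell). The 3 calls in Het were all lost when q-values were adjusted within that comparison.

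A call in one line and not in another is no difference between them, so the time courses were also compared directly, as a difference of log2 changes over the implied SE. With that SE, 0 of 10 members passed in KO against wild type, where 0.305% of all genes did. The numbers were 0 of 10 in Het against wild type (0.0915% of all genes) and 0 of 10 in KO against Het (0.120%). Between KO and wild type, DLL3 (-2.48, SE 1.03) and DLL1 (-1.77, SE 0.85) were the 2 members below an unadjusted p of 0.05, and the difference of HES5 was -1.88 with an SE of 1.30. HEY1 was the only such member in Het against wild type (-3.60, SE 1.25), and DLL1, DLL3, HES5 and HEY1 were the 4 in KO against Het. When the SE was scaled to the smaller deposited p-values, 1 member passed in each: DLL3 in KO against wild type (beside 3.02% of all genes), HEY1 in Het against wild type (0.443%) and DLL1 in KO against Het (1.33%).

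Beyond these 10, 46 other genes of the pathway were followed, from ligands and the enzymes that modify or cut Notch to its nuclear partners and other targets. In KO at day 3, 6 of the 41 tested were called in the authors' deposited table, 1 upward and 5 downward, beside 4.34% and 5.17% of all genes. MAML3, another Mastermind coactivator, rose (1.25, SE 0.58), and JAG2, DLK1, MIB2, DTX3 and HES3 fell. HES3, a HES repressor of early neural tissue, went from 98.1 FPKM in wild type to 13.7 FPKM in KO, and the Delta-like protein DLK1 from 151 to 15.3 FPKM. At day 5, 0 of 42 rose and 7 fell, beside 7.58% and 5.68% of all genes. Those that fell were DLK1, NEURL, NEURL1B, LFNG, MFNG, DTX4 and HES4. NEURL and NEURL1B are ubiquitin ligases that act on Delta ligands, and LFNG and MFNG are Fringe enzymes that put sugars on Notch. LFNG was at 15.7 FPKM in wild type and 5.46 FPKM in KO (-1.53, SE 0.57), and HES4 at 12.98 and 1.32 FPKM (-3.30, SE 0.72). None of the 8 genes for receptor cleavage was called in KO against wild type at either day. Their changes were mostly above 0, in 7 of 8 at day 3 (median 0.44) and 6 of 8 at day 5 (median 0.22). Of the 8, PSEN2, NCSTN and APH1A lie in the distal part of chromosome 1. The median log2 change of all expressed genes there was 0.60 in KO at day 3 and 0.37 at day 5. The part of that shift in the cleavage genes was not tested.

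In Het at day 3, the authors' deposited table has 7 of these genes lower and 0 higher among 41 tested (JAG2, DLK1, MIB2, DTX3, HES3, HES4 and HES6), beside 4.63% and 1.68% of all genes. At day 5, 1 of 42 was called, near the 2.16% of all genes: NRARP, a feedback inhibitor of Notch, fell (-1.04, SE 0.46). These day 3 counts moved with GC content: centred on genes of like GC, 4 remained in KO and 2 in Het. DTX3 also lies on chromosome 12, where the median log2 change of all expressed genes was -0.47 in KO and -0.52 in Het at day 3, and none of the 10 members lies there. What part GC content and chromosome 12 have in those calls was not tested further. KO against Het had 1 of 40 up (APH1B) and 1 down (DLK1) at day 3, beside 2.30% and 0.540% of all genes. At day 5 it had 0 of 40 up and 2 down (DLK1 and HES4), beside 5.55% and 2.51%. With time in wild type 11 of 43 rose (MIB1, NEURL, NEURL1B, LFNG, RBPJ, MAML3, NUMB, ITCH, HES4, HEYL and NRARP) and 5 fell (DLK1, MIB2, PSEN2, HES3 and HES6), beside 11.2% and 10.4% of all genes. Centred on genes of like GC content, MIB2, PSEN2, RBPJ, NUMB, ITCH and HES6 were no longer called there, while JAG2, MFNG and HES7 were. In Het NEURL1B and HES4 rose and DLK1 fell, 3 of 40 tested beside 7.57% of all genes. In KO 1 of 41 was called, PSEN2, which fell, beside 11.8% of all genes.

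**Figure D4:**
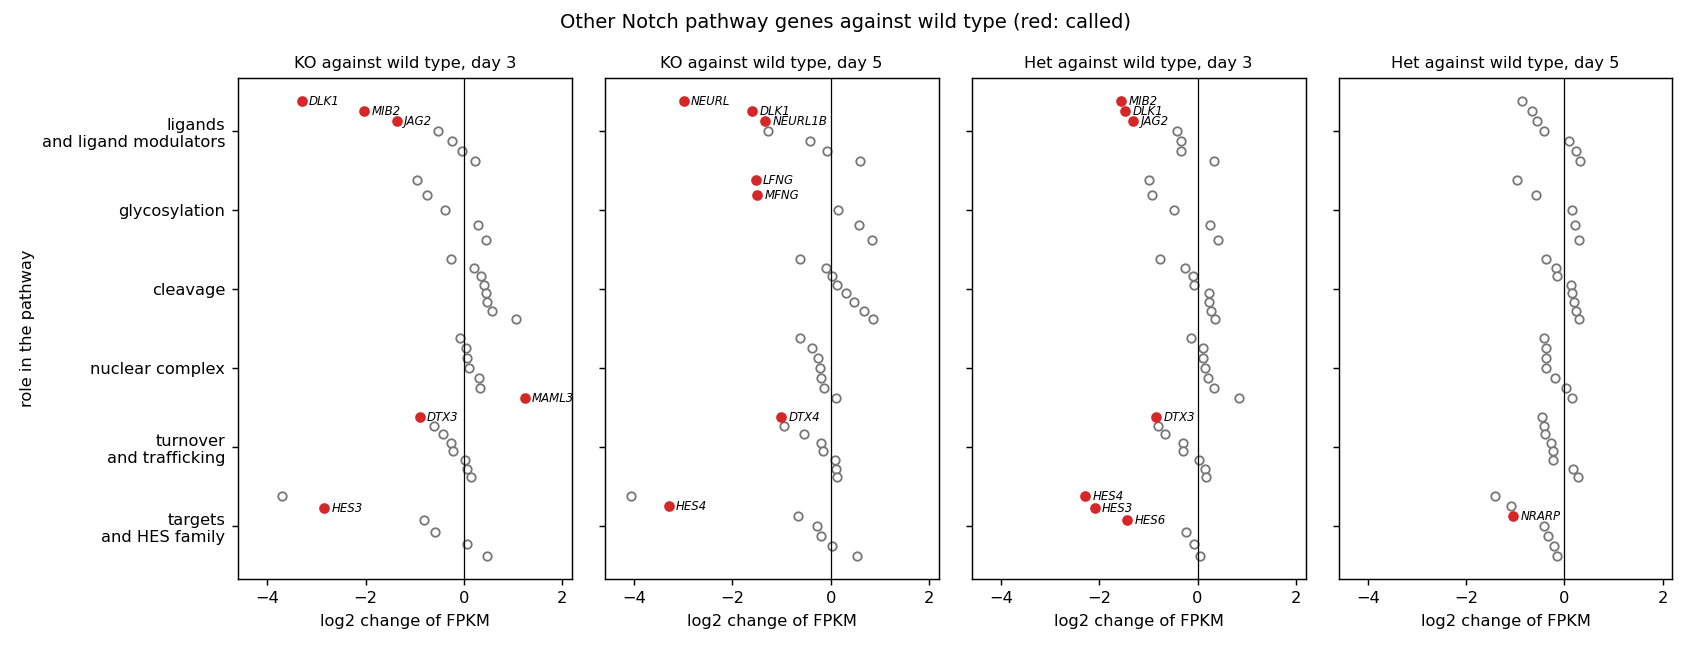
Log2 change of FPKM of the other Notch pathway genes tested, by role, in each edited line against wild type, day by day, with 1 point per gene and called genes filled in red and named. Most called genes lie left of 0, MAML3 in KO at day 3 lies right of it, and no cleavage gene is called.

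Among 8 proneural and early neuronal genes, of the class that HES repressors hold down, the authors' deposited table tests 0 at day 3 and 2 at day 5 in each comparison with wild type. INSM1, a zinc finger factor of newly formed neurons, was at 2.95 FPKM in wild type, 1.44 FPKM in Het and 0.985 FPKM in KO at day 5, and it fell in KO (-1.58, SE 0.73). NHLH1 and INSM1 rose with time in wild type (1.90, SE 0.81, and 2.80, SE 0.78) and in Het (1.82, SE 0.78, and 1.80, SE 0.75). In KO their changes were 0.78 (SE 0.91) and 2.63 (SE 1.06) and did not pass, and the difference between the lines was not tested for these genes.

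The groups also differed in markers of the cells they hold. The 10 neural crest markers summed to 18.4 and 64.2 FPKM in wild type, 65.5 and 113 FPKM in Het and 85.8 and 265 FPKM in KO at days 3 and 5. SOX10, a defining crest gene, was at 0.388 FPKM in wild type at day 5, although those cells are labelled neural crest, and at 34.6 FPKM in KO. The 6 neural progenitor markers summed to 382 and 421 FPKM in wild type, 232 and 320 FPKM in Het and 202 and 162 FPKM in KO. The levels of DLL1, DLL3, JAG1 and HES5 at day 5 had the same order of lines, as did the sums of the neuron markers. Not every step of that order passed the threshold. Of the 6 progenitor markers at day 5, 0 were called in Het against wild type and 4 fell in KO against wild type. For DLL3 neither wild type and Het (q = 0.228 in the authors' deposited table) nor Het and KO (q = 0.0694) differed past it. Neither step passed for JAG1 (q = 0.0784 and 0.885 in the authors' deposited table). For HES5 wild type and Het did not (q = 0.191 in the authors' deposited table). The 5 neuron markers summed to 162 and 85.2 FPKM in wild type, 94.1 and 78.7 FPKM in Het and 122 and 66.1 FPKM in KO, most of it TUBB3. The single neuron markers moved in different directions. In KO at day 3 TUBB3 fell (-0.81, SE 0.41) and STMN2 rose from 5.14 to 32.0 FPKM (2.64, SE 0.50), and at day 5 DCX rose from 0.960 to 2.53 FPKM (1.40, SE 0.57). In Het TUBB3 fell at day 3 (-0.84, SE 0.40), and no neuron marker was called at day 5. The 4 pluripotency markers summed to 61.5 FPKM in wild type, 19.5 FPKM in Het and 91.3 FPKM in KO at day 3, and the 5 mesoderm and endoderm markers to 16.3 FPKM in KO at day 3 and under 1 FPKM in wild type and Het. Each of the 4 markers of presomitic mesoderm, another tissue rich in DLL1 and DLL3, was below 1 FPKM in every group. Their sum was highest in KO at day 5, at 1.10 FPKM. The part of these marker differences in the changes of the Notch genes was not tested.

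Over the 6 groups, the genes whose log2 levels followed those of DLL1 most closely, among 10901 genes with 5 FPKM or more in some group, were SMARCD1 (Pearson's r = 0.996), RPP14 (0.992) and SLC25A4 (0.991). For HES5 they were DDB2 (0.997), MED18 (0.996) and HDAC1 (0.995), and for NOTCH3 they were MIR4784 (0.987), CCDC97 (0.987) and HTR1D (0.983). With 6 points that share lines and days these are descriptions, and SMARCD1 ranged only from 60.5 to 128 FPKM while DLL1 spanned 18.6-fold.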

How the data were processed

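RNA sequencing levels of 16 samples in 8 labelled groups were used as the authors summarised them in 1 table. The submitters' processing notes name TopHat2 2.1.1, Cuffdiff 2.2.1 and hg19; the annotation version is not given in the sources used here. FPKM as deposited by the authors are 1 value per gene and group, so depth per library is unknown and no interval from counts is given. The log2 fold changes, test scores, p-values and q-values were computed by the authors, the score being a log fold change divided by its standard error. The deposited q-values match a Benjamini-Hochberg adjustment over all 222234 tests of the 15 comparisons, of which 9 were used, and the smallest deposited p-value is 5e-05.

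Calls are deposited q-values below 0.05. The SE was computed as the log2 change over the test score, and 1 variance per group was fitted over the 15 comparisons of 14681 genes (median relative error 1.93e-06). Differences between time courses were tested with that SE as normal scores (2-sided), adjusted by Benjamini-Hochberg over all genes. The test was run on data simulated with the same implied SE, so that check cannot show whether the SE itself is right. The deposited p-values are smaller than a normal reading of the score gives, so an alternative scaled the SE. GC content came from the longest GENCODE 29 transcript of each gene name (21567 genes, 92.6%; 20 bins). Python 3.11.15, numpy 2.4.6, pandas 2.3.3 and scipy 1.17.1 were used.

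The members and gene lists were chosen with earlier results of these data known. All 10 members are named, and of the other pathway genes those called in a comparison; NOTCH2NL was added after its values were seen, and 2 genes of the planned lists are not reported here. Alternatives were stricter q-values, adjustment within a comparison, a minimum of 1 FPKM, a minimum log2 change of 1, pseudocounts of 0.1 and 1 FPKM, a normal p from the score, and centring on the median change or within GC bins. The replicates could not be told apart in the table.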

Additional observations from a re-analysis of the deposited data

How the results depend on the processing

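No paired analysis was possible because the deposited table holds 1 level per group and none per replicate, and leaving out a replicate was not run for the same reason. Of 87 results that count calls under an alternative, 57 stayed within 1.5 times, 25 dropped and 5 went up; the cause was not tested unless given. Read as a normal p, the deposited scores left 1 member (DLL1) and 248 of 1396 genes in KO against wild type at day 3, 3 at day 5, 1 and 0 in Het against wild type (32 of 314 genes at day 5), 0 and 2 in KO against Het, and 2 and 0 in the time courses of wild type and Het. A q-value below 0.01 left 1 and 3 in KO against wild type, 0 at day 3 between KO and Het and 0 in the Het time course. With at least 1 FPKM in both groups, which removes low genes and readjusts the q-values, 1 was left in KO against wild type at either day, 0 and 1 between KO and Het, 0 in the Het and 1 in the KO time course. Adjusting within a comparison left 0 for KO against Het at day 3 and 0 for the Het time course, and centring on the median left 0 for the former.

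Centring within GC bins left 1 member in Het against wild type at day 3 and 0 in KO against Het at day 3. The other pathway genes called then numbered 4 and 2 at day 3 in KO and Het, 2 in Het at day 5, 1 in KO against Het at day 3 and 3 in the KO time course; this was chosen after seeing the data. It turned the sign of 7 member changes, none of them called. At day 3 these were, in KO against wild type, DLL3 (0.76), JAG1 (-0.031), NOTCH1 (0.10) and NOTCH3 (0.46), and in Het DLL3 (0.024). The others were NOTCH3 in Het at day 5 (-0.036) and NOTCH1 in the wild-type time course (0.12). Centring on the median added DLL3 in KO against Het at day 5 (-1.68), and MAML2 in the Het time course was lost under either centring (1.28 and 1.32). Scaling the SE raised the 3 time-course differences from 0 to 1 member each. A pseudocount of 1 FPKM moved 17 member changes by 1 SE or more and left 73 as they were, and 0.1 FPKM moved none. Moved in KO against wild type at day 5 were DLL1 (-4.22 to -3.26), DLL3 (-2.49 to -1.55) and HES5 (-3.42 to -2.28). At day 3 HEY1 moved from 2.03 to 0.70 in that comparison. With levels for groups alone, a change driven by 1 library cannot be seen, and genes below 1 FPKM are the least certain.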
